A study of Mus musculus with 9 samples.

Results

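The regions described here are 324 intervals at which chromatin captured with probes against the long noncoding RNA Gm4665 was enriched over input at moderate strength, close to an end of a protein-coding gene. They were chosen by their values: the lowest of the 3 replicate folds had to be at least 15 and under 30, where a fold is the linear enrichment over input that the authors deposited for each replicate. The interval also had to lie on chromosomes 1 to 19, be under 1500 bp long, share no base with an interval of the LacZ control list and have its midpoint within 2 kb of an annotated end of a protein-coding gene. Of 37617 Gm4665 intervals on these chromosomes, 5046 met the limits on fold, length and LacZ overlap, and 324 of those (6.42%) were at such a gene end. They amount to 0.861% of the list. The folds are therefore a description of what was selected, and no test is attached to them.

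The material was testicular germ cells of ICR mice, wild type and taken on postnatal day 35, which were cross-linked, lysed and sonicated. The 9 samples form 3 groups of 3 replicates: chromatin captured with biotinylated Gm4665 probes, chromatin captured with control probes for LacZ, which is absent from the mouse genome, and input DNA, which enters only as the denominator of the folds. Genotype, strain and age were the same in all groups. Captured DNA gives no RNA levels, so the cell type was not checked against marker genes. The sample titles call the captured RNA LncRNA-20, while the protocol text for the same samples names Gm4665. Pooling of animals and the origin of the replicates are not given in the labels, so the spread between replicates may be technical. The authors joined the replicates of each probe set into 1 interval list. The means of joining were among the steps not given in the sources used here.

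Long noncoding RNAs are transcripts without a protein product, and some of them stay bound to chromatin and act on genes there. Capture with antisense probes retrieves the DNA that is cross-linked to such an RNA, together with DNA that the probes reach directly. A protein-coding gene has its promoter at the start, where RNA polymerase is loaded, and its polyadenylation region at the 3' end, where transcription finishes. A testis at this age holds spermatogonia, meiotic spermatocytes and spermatids, the haploid cells that build the acrosome and the flagellum.

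Some of the intervals covered a whole promoter window. Of the 324, 29 covered the whole 300 bp window that RefSeq's promoter table (build GRCm38.p6, the same build as mm10) gives for a transcript start, and these windows belong to 30 genes. At gene ends, so did 42 of 2001 Gm4665 intervals with a lowest fold under 15, 6 of 39 with 30 or more and 52 of 692 LacZ intervals of any fold. The sets differ in median length (1021.5 bp for the 324, then 527, 1348 and 822.5 bp), and not every gene is in the promoter table. The 250 bases upstream of the start are printed for the 6 of the 29 intervals with the highest mean fold, because they are the promoter DNA recovered most strongly within the fold limits. The windows are chr3:152395223-152395472 on the plus strand at Zzz3, chr9:36128780-36129029 on the minus strand at Gm5916 and chr12:12261927-12262176 on the plus strand at Cyria. The others are chr9:121495695-121495944 on the minus strand at Cck, chr4:155653291-155653540 on the minus strand at a transcript start inside Mmp23, and chr6:29396325-29396574 on the plus strand at Ccdc136. Sequences run 5' to 3' along the gene, and capitals mark matches to any of the 7 motifs searched, which are spelled out with the motif counts.
Zzz3: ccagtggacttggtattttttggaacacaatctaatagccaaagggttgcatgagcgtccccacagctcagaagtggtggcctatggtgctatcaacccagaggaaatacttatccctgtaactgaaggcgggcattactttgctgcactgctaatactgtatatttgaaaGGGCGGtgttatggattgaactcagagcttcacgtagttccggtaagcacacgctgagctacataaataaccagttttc
Gm5916: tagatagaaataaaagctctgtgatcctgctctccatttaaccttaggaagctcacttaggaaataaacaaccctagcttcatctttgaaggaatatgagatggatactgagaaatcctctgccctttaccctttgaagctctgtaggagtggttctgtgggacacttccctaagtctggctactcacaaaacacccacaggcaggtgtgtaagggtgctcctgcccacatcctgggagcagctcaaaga
Cyria: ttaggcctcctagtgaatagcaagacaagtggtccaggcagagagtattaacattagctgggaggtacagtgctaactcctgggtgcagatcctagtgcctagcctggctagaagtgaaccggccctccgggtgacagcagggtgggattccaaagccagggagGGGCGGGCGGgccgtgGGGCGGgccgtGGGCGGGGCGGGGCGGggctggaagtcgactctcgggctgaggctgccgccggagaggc
Cck: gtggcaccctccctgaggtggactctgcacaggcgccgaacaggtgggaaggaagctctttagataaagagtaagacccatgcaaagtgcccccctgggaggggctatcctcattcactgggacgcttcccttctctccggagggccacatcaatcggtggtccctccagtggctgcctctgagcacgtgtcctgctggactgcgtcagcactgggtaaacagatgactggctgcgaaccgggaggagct
Mmp23: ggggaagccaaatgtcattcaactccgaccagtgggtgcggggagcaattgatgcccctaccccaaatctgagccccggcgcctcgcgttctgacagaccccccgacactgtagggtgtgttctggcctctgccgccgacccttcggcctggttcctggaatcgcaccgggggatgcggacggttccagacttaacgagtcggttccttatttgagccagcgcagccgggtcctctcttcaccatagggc
Ccdc136: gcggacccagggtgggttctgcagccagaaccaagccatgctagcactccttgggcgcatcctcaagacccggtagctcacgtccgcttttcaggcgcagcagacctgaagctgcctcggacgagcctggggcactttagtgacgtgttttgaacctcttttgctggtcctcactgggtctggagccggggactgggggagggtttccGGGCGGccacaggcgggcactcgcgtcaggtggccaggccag

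These 6 stretches differ widely in composition. Their GC content was 45.6% at Zzz3, 46% at Gm5916, 64.8% at Cyria, 60% at Cck, 62% at Mmp23 and 64.4% at Ccdc136. The Gm5916 stretch held 0 CpG dinucleotides and the Mmp23 stretch held 18. In the Cyria stretch the capitals fall in 3 runs of GC boxes, some of them overlapping, all in the last stretch before the start, while Zzz3 and Ccdc136 each hold a single one.

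Across the 324 intervals, fold was highest in replicate 1 and lowest in replicate 2. In replicate 1 the folds ran from 15.025 to 51.5 with a median of 26.3. In replicate 2 they ran from 15.03 to 41.2 with a median of 20.6, and in replicate 3 from 15.01 to 49.95 with a median of 23.4. The mean of the 3 medians was 23.4 ± 2.85 (SD, n = 3). The same order of replicates held over all autosomal intervals of the list, whose medians were 11.4, 8.50 and 10.3 in replicates 1, 2 and 3. Relative to those medians, the selected intervals stood at 2.31, 2.42 and 2.28 times in the 3 replicates (mean 2.34 ± 0.0755, SD, n = 3).

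**Figure D1:**
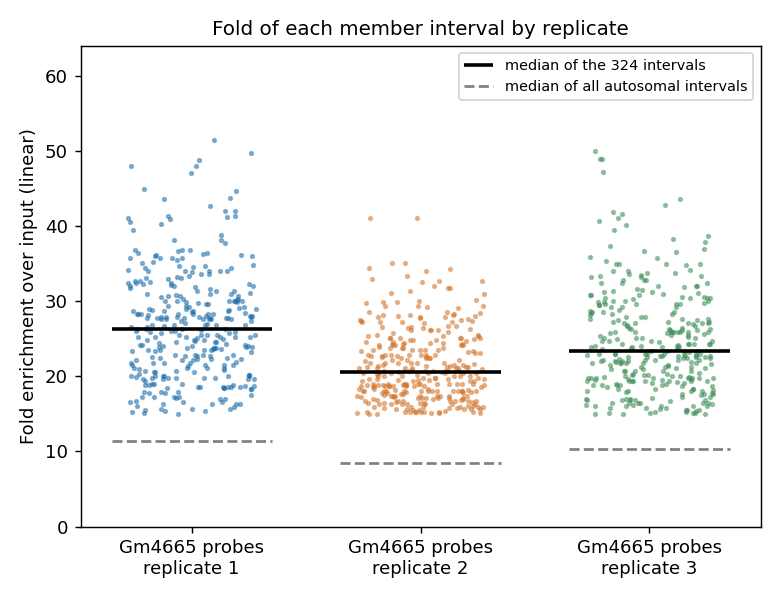
Fold enrichment over input (linear scale) of each of the 324 intervals in each Gm4665 probe replicate. Points are intervals, black bars their medians (26.3, 20.6 and 23.4) and dashed grey bars the medians of all autosomal Gm4665 intervals (11.4, 8.50 and 10.3); replicate 2 lies lowest for both.

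The lower limit of 15 was therefore set mainly by replicate 2. That replicate held the lowest fold at 190 of the 324 intervals (58.6%), replicate 3 at 85 (26.2%) and replicate 1 at 49 (15.1%). Over all autosomal Gm4665 intervals the shares were near these, at 62.7%, 24.7% and 12.6% for replicates 2, 3 and 1. After division of each replicate by its own list median, the lowest value was in replicate 1 at 120 intervals, in replicate 2 at 75 and in replicate 3 at 129. The ratio of the highest to the lowest replicate of an interval had a median of 1.40, with quartiles of 1.24 and 1.59, and exceeded 2 at 11 intervals. Its median over all autosomal Gm4665 intervals was 1.53. The coefficient of variation over the 3 replicates had a median of 17.8%. The deposited pileup, the coverage at the summit, is 1 value per interval with no library named. It had a median of 89 and ran from 48 to 194, which corresponds to a counting SD of 10.6% at the median. Library totals were not used here, so the depth of each replicate is unknown.

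The intervals just inside and just outside the fold limits show how narrow the borders are. The lowest fold was 15.01 at Rpp25l, whose 3 folds were 15.94, 15.07 and 15.01, and it was also 15.01 at Begain and at the interval shared by Hsd17b7 and Ddr2. Just below the limit it was 14.99 at Gm12407, 14.97 at Hoxb6 and 14.97 at Rnf212b. At the upper limit it was 29.8 at Doxl2, 29.7 at Dpf3 and 29.5 at Foxo3 inside, against 30.3 at Actc1, 30.6 at Hsd3b6 and 31.0 at Galnt13 outside. The 3 replicates of Dpf3 spread far more (SD 11.9) than the gaps between these lowest folds.

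The 20 intervals with the highest mean fold lay on 12 chromosomes and had mean folds of 33.5 to 43.4. The strongest lay at Dpf3, which encodes a PHD finger subunit of the BAF chromatin remodelling complex. It ran from 83485780 to 83487048 on chromosome 12, with its midpoint 1322 bp inside the gene from the start. Its folds were 51.5, 29.7 and 48.9 in replicates 1, 2 and 3 (mean 43.4 ± 11.9, SD, n = 3), so replicates 1 and 3 were close and replicate 2 was much lower. The rule keeps the lowest fold under 30, so a mean this high requires a replicate well below it. A wide spread among the highest means is thus partly set by the rule. Here and below, a distance from an interval to a gene end is that of its midpoint. The second interval was centred 429 bp upstream of the start of Zzz3 and covered that start. Zzz3 encodes a subunit of a histone acetyltransferase complex. This interval was also within 2 kb of an end of Usp33, a deubiquitinase gene. It showed the same pattern, with folds of 49.8, 29.4 and 49.95 (mean 43.0 ± 11.8, SD, n = 3). Gm5916, a predicted protein-coding gene, had 47.1, 27.6 and 48.9 at an interval whose midpoint was 385 bp upstream of its start. Ccl22, a chemokine gene, had 42.7, 27.7 and 47.3 at 1512 bp upstream.

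**Figure D2:**
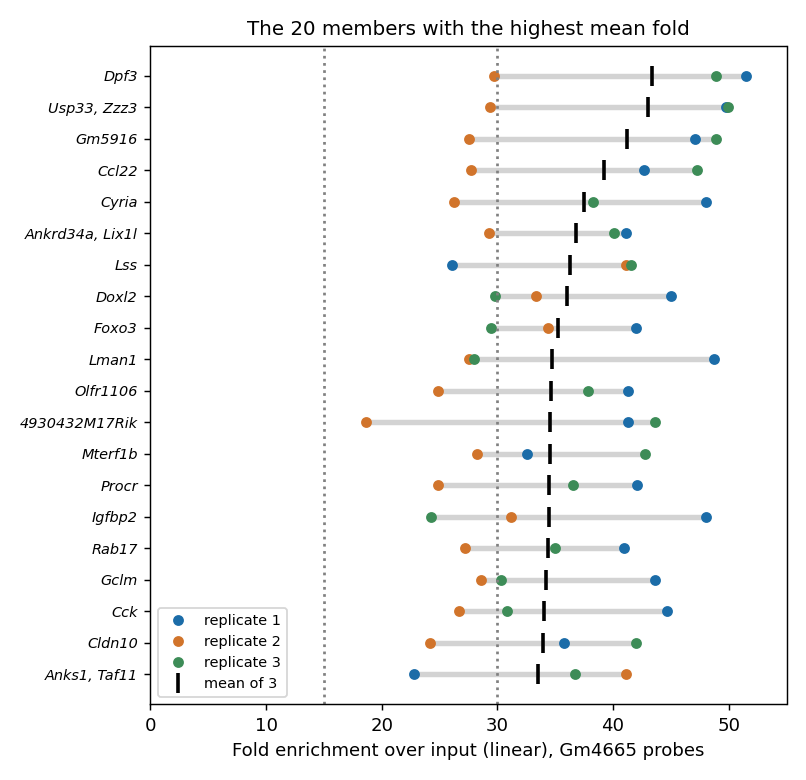
Fold enrichment over input (linear scale) at the 20 intervals with the highest mean fold, labelled with every protein-coding gene that has an end within 2 kb. Coloured points are the 3 Gm4665 replicates, black ticks their mean, grey bars the range and dotted lines the fold limits of 15 and 30; replicate 2 is the lowest at 15 of the 20.

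Some of these 20 lie at genes of transcription control and signalling. Foxo3, a forkhead transcription factor gene, had folds of 42.0, 34.4 and 29.5 (mean 35.3 ± 6.33, SD, n = 3) at an interval 1774 bp inside the gene from its start. Taf11, which encodes a subunit of the general transcription factor TFIID, shares an interval with Anks1 on chromosome 17, and its folds were 22.8, 41.1 and 36.7. This was 1 of only 2 of the 20 at which replicate 1 was the lowest. Cyria, whose product binds the small GTPase Rac1, had 48.1, 26.2 and 38.2, and Rab17, a small GTPase gene, had 40.9, 27.2 and 35.0. Igfbp2, which encodes a binding protein of insulin-like growth factors, had 48.1, 31.2 and 24.3 at an interval that covered its 3' end. At Cck, the cholecystokinin gene, the interval covered the start, and the folds were 44.7, 26.7 and 30.8.

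Others lie at genes of metabolism, secretion and the cell surface. Lss, which encodes lanosterol synthase of cholesterol synthesis, had folds of 26.05, 41.2 and 41.6, so here replicate 1 stood below the others. The midpoint of its interval was 839 bp past its 3' end. Gclm, which encodes the modifier subunit of the first enzyme of glutathione synthesis, had 43.6, 28.6 and 30.3, with the midpoint 703 bp past its 3' end. Lman1, a cargo receptor gene of the secretory pathway, had 48.8, 27.6 and 27.96. At Lman1, replicates 2 and 3 were close and replicate 1 stood apart. Procr, which encodes the protein C receptor, had 42.1, 24.9 and 36.5, and Cldn10, a claudin gene of tight junctions, had 35.8, 24.1 and 41.9. The interval shared by Lix1l and Ankrd34a had 41.1, 29.3 and 40.1. Mterf1b, of the family of mitochondrial transcription termination factors, had 32.6, 28.2 and 42.8, and Doxl2 had 45.01, 33.3 and 29.8. The olfactory receptor gene Olfr1106 had 41.3, 24.8 and 37.8, and 4930432M17Rik had 41.3, 18.7 and 43.6.

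The replicates agreed far more closely at other intervals of the set, which had lower mean folds. At Cwc27, a gene of the spliceosome, the folds were 16.6, 17.3 and 16.9, which is the smallest ratio of highest to lowest replicate of the 324 (1.04). Tgm4, a transglutaminase gene, had 26.8, 28.02 and 27.6, and Mcm3, which encodes a subunit of the replicative helicase, had 20.2, 19.4 and 19.3. The interval shared by Tmem95 and Kctd11 had 28.9, 27.4 and 28.5. At the other extreme, Noc3l, a nucleolar gene of ribosome assembly, had 36.0, 15.1 and 41.1, a ratio of 2.72. Adamts3, which encodes a procollagen protease, had 24.6, 15.3 and 34.1. Wdr33, of the mRNA polyadenylation machinery, had 25.5, 15.7 and 32.9, and Slc7a8, an amino acid transporter gene, had 36.5, 20.7 and 17.1. Of the 11 intervals with a ratio above 2, replicate 2 was the lowest at 8.

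The intervals were short and of similar width. Their length ran from 446 to 1494 bp with a median of 1021.5 bp. The rule limits both length and fold. Within those limits, as a description only, the median length was 925, 987, 1055 and 1136 bp in 4 groups of rising mean fold. The deposited summit lay a median of 55.5 bp from the midpoint and at most 261 bp away.

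Around gene ends the midpoints were spread over the whole 2 kb. The nearest protein-coding gene end was within 500 bp at 87 intervals, between 500 and 1000 bp at 80, between 1000 and 1500 bp at 78 and between 1500 and 2000 bp at 79. The share within 500 bp was 26.9%, beside 28.2% of weaker Gm4665 intervals (lowest fold under 15), 35.9% of the 39 stronger ones (30 or more) and 29.6% of LacZ intervals at gene ends. The share is thus near that of the weaker and the LacZ intervals. A protein-coding gene end lay inside the interval itself at 85 of 324 (26.2%). The matching share of the other sets, which differ in length, was not computed, so this count is not read as a trait of the set. The midpoint lay inside the nearest gene at 160 intervals (49.4%), beside 51.2% of weaker, 41.0% of stronger and 55.9% of LacZ intervals. Intervals with midpoints closest to an annotated start were those at Vstm2a (18 bp inside), Tiparp (45 bp upstream), Hilpda (76 bp inside), St8sia1 (99 bp upstream) and Nadsyn1 (101 bp inside). Tiparp encodes a poly(ADP-ribose) polymerase family member, and its folds were 25.3, 17.8 and 25.96. Hilpda, a lipid droplet gene, had 25.7, 23.3 and 27.1. St8sia1, which encodes the sialyltransferase that makes ganglioside GD3, had 33.0, 29.9 and 20.7, and Vstm2a had 18.6, 16.7 and 20.2.

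The side of the gene could be read for 251 of the 324 intervals, since strand was taken from the promoter table, which covers 16457 of 20560 protein-coding genes on these chromosomes. Of the 251, 138 were nearest to a gene start and 113 to a 3' end, so 54.98% were on the start side (95% Wilson interval 48.8% to 61.0%, counting error only). Gm4665 intervals with a lowest fold under 15 that met the other limits, which reached 10.2% of protein-coding genes, were on the start side at 746 of 1549 (48.2%, 45.7% to 50.7%). Those with a lowest fold of 30 or more, at 0.199% of genes, were at 21 of 33 (63.6%, 46.6% to 77.8%). LacZ intervals under 1500 bp at protein-coding gene ends that overlap no Gm4665 interval, at 3.68% of genes, were at 274 of 550 (49.8%, 45.7% to 54.0%). No fold limit was set on the LacZ intervals, unlike on the other sets. The interval of the mid-strength share overlaps that of each of the other sets, which does not show that the shares are equal. The differences were not tested because intervals are not replicates.

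**Figure D3:**
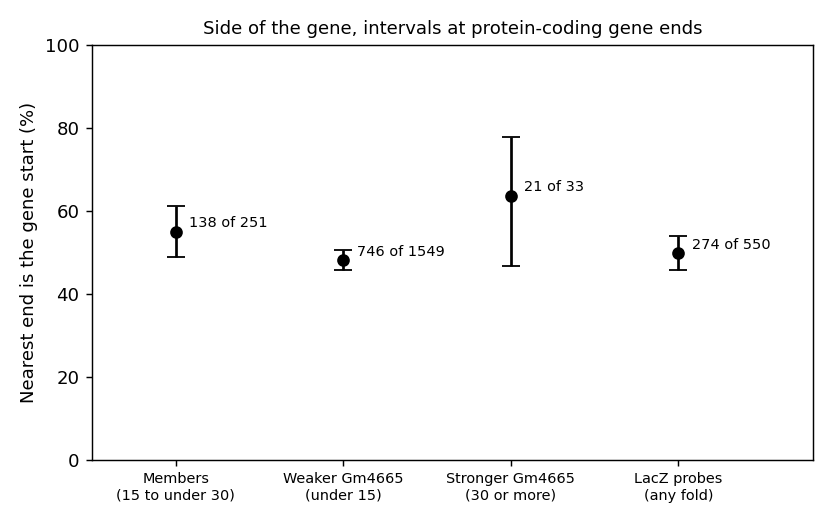
Percent of intervals whose nearest protein-coding gene end is the gene start, for the 324 mid-strength intervals and for 3 other sets at protein-coding gene ends; numbers are intervals on the start side of those with known strand. Error bars are 95% Wilson intervals for counting error, and the bar at 54.98% overlaps the other 3.

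Both sides were held to the same fold limits, so their levels are a description. Start-side intervals had median folds of 26.9, 21.1 and 24.5 in replicates 1, 2 and 3 (mean 24.1 ± 2.92, SD, n = 3). The 3'-end intervals had 26.05, 20.1 and 22.3 (mean 22.8 ± 3.02, SD, n = 3). The start-side median was the higher one in each replicate, and the difference was not tested because the rule used these folds. Along the gene, 500 bp bins held 13 to 21 intervals around starts and 12 to 17 around 3' ends. Of the start-side intervals, 68 of 138 had their midpoint inside the gene, as had 59 of 113 at 3' ends.

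**Figure D4:**
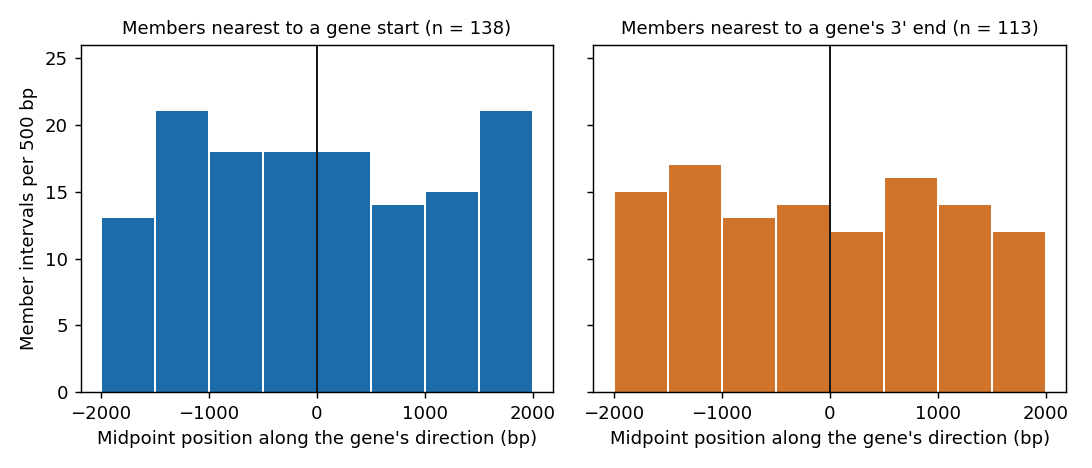
Number of intervals per 500 bp by midpoint position along the direction of the nearest gene, for the 138 nearest to a start (0 is the start, negative is upstream) and the 113 nearest to a 3' end (0 is the end, positive is past it). Bins hold 13 to 21 and 12 to 17 intervals, with no bin standing far above its neighbours.

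Some intervals were near more than 1 gene. At 46 of the 324 (14.2%), ends of 2 protein-coding genes were within 2 kb, and at the other 278 a single gene was. Ends of 2 or more genes were in reach at 11.4% of weaker Gm4665, 5.13% of stronger Gm4665 and 11.7% of LacZ intervals at gene ends. At 7 of the 324 intervals the starts of genes on opposite strands were both in reach. The strongest of these 7 after the Taf11 and Anks1 interval was that of Nadsyn1, which encodes NAD synthetase, and Dhcr7, which encodes the last enzyme of cholesterol synthesis. Its folds were 36.7, 28.1 and 24.0 (mean 29.6 ± 6.46, SD, n = 3), and it covered both starts. Septin2, a cytoskeletal septin gene, and Hdlbp, an RNA-binding protein gene, share an interval with 25.2, 17.1 and 35.4. The interval of Polr2f, which encodes an RNA polymerase subunit, and 1700088E04Rik had 20.7, 18.1 and 15.2. Another interval reaching 2 genes with a high mean was that of Mib2, a ubiquitin ligase gene, and Mmp23, a metalloproteinase gene, with folds of 29.3, 27.4 and 40.6. In addition, 27 of the 324 lay within 2 kb of an end of a lncRNA gene. The matching share of other Gm4665 or LacZ intervals was not computed, so the count is not read as a trait of the set. At Foxo3 the lncRNA gene was Gm38485, whose start was 112 bp from the midpoint.

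The intervals touched 369 of 20560 protein-coding genes (1.79%), nearly all of them singly. Only Caskin2, which encodes a scaffold protein, had 2 of the intervals, 1 near each end of the gene. Its folds were 16.4, 23.4 and 15.7 at the interval shared with Tmem94 and 18.9, 28.2 and 18.1 at that shared with Tsen54, with replicate 2 highest at both. The nearest other interval of the set was a median of 1.42 Mb away, and only 1 pair lay within 10 kb, at Spata46 and Nos1ap on chromosome 1, 4269 bp apart. Another Gm4665 interval of any strength lay within 10 kb at 98 of the 324 (30.2%). The same share over all Gm4665 intervals was not computed, so no clustering is read from it. Chromosomes held 10 to 27 of the intervals, or 11.8 to 22.8 per 1000 protein-coding genes (15.8 overall), with chromosome 1 highest and chromosomes 2 and 14 lowest. The order depends on the denominator. Per 1000 Gm4665 intervals (8.61 overall), chromosome 7 was highest (12.2) and chromosome 14 lowest (5.54), with 9.46 on chromosome 1 and 7.14 on chromosome 2.

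Genes of germ cell functions were present in small numbers. The 12 gene lists examined hold 528 autosomal protein-coding genes, of which 15 (2.84%) had one of the intervals at an end, beside 1.79% of all protein-coding genes. Each list had 0 to 2 such genes. The lists were drawn up with earlier results of these data known, so a share above the background is not independent evidence. The 15 intervals had mean folds of 21.0 to 32.5, with a median of 28.3.

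**Figure D5:**
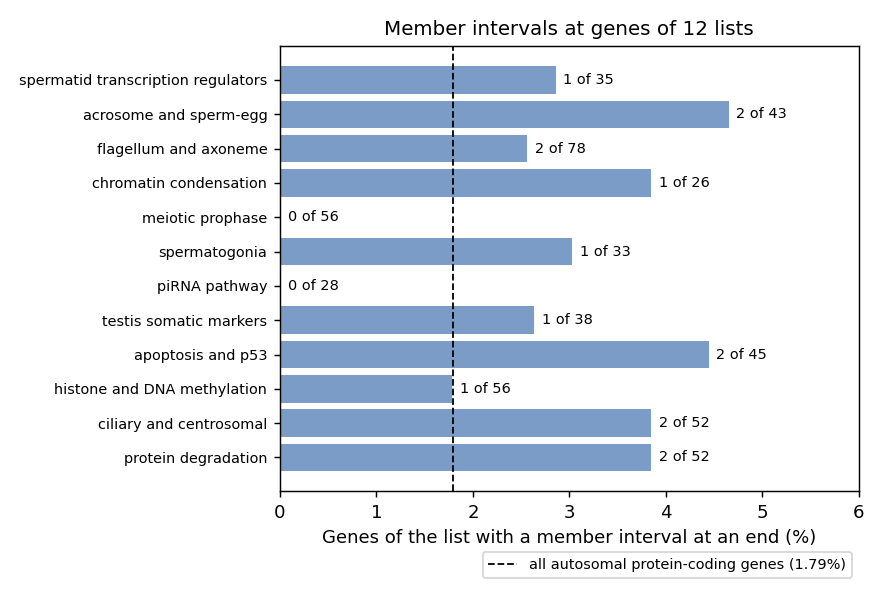
Percent of the genes of each of 12 lists with a mid-strength interval at an end, with the counts beside the bars; the dashed line is the share of all autosomal protein-coding genes (1.79%). Every bar rests on 0 to 2 genes.

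In the 4 spermatid lists, the counts were 1 of 35 transcription regulators, 2 of 43 acrosome and sperm-egg genes, 2 of 78 flagellum genes and 1 of 26 chromatin condensation genes. These shares lie between 2.56% and 4.65%, beside 1.79% of all protein-coding genes, and rest on 1 or 2 genes each. No difference between stages was tested. H1f6, which encodes the testis linker histone H1t, had folds of 40.2, 29.9 and 27.2 (mean 32.5 ± 6.87, SD, n = 3). Its interval ran from 23694090 to 23695139 on chromosome 13, with the midpoint 1197 bp upstream of its start. Rfx2, a transcription factor gene of spermiogenesis, had 27.9, 22.6 and 23.4 at an interval 1165 bp past its 3' end. In the flagellum list, Dnaic2, an axonemal dynein intermediate chain gene, shares an interval with Ttyh2 with folds of 26.4, 29.3 and 34.9, 1311 bp upstream of its start. Tekt3, a tektin gene of the flagellum, had 34.1, 19.7 and 34.1 at an interval inside the gene near its 3' end. In the acrosome and sperm-egg list, Adam1a, which encodes the alpha subunit of fertilin, had 33.6, 22.2 and 26.1 at an interval that covered its start. Tmem95, a sperm membrane protein gene, has its start 1019 bp from the midpoint of the interval with 28.9, 27.4 and 28.5 named above. Replicate 2 was the lowest at Rfx2, Tekt3, Adam1a and Tmem95, and it was neither lowest nor highest at H1f6 and Dnaic2.

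In the lists of earlier germ cell stages and the piRNA pathway, counts were as small. Of 56 meiotic prophase genes and 28 piRNA pathway genes, 0 had one of the intervals, and lists of this size cannot tell that count from the 1.79% of all protein-coding genes. Weaker Gm4665 intervals were at 1 and 2 of these genes, beside 10.2% of all protein-coding genes. LacZ intervals were at 4 and 0 of them. Of all protein-coding genes, 3.68% had a LacZ interval that met the limits above, and 4.09% had any. Of 33 spermatogonial genes, 1 had a mid-strength interval: Foxo1, a forkhead gene like Foxo3. Its folds were 22.5, 20.7 and 21.8, which differ little between replicates. Its midpoint lay 1822 bp inside the gene from the start, beside 1774 bp at Foxo3. Of the 138 start-side intervals, 21 had midpoints 1500 to 2000 bp downstream of the start, so nothing is read from this.

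Other lists gave the remaining 8. Bbs2 and Bbs7 encode subunits of the BBSome, a complex of ciliary transport, and both intervals lay upstream of the start, at 1078 and 867 bp. The folds were 26.8, 30.1 and 35.9 at Bbs2 and 26.8, 33.0 and 30.02 at Bbs7, with replicate 1 lowest at both. In the apoptosis and p53 list, Trp53, which encodes p53, had 29.7, 24.3 and 32.5 at 815 bp past its 3' end. Casp1, an inflammatory caspase gene, shares an interval with the neighbouring Casp4 with folds of 32.1, 21.8 and 33.7. Cul4a, a cullin gene of ubiquitin ligases, had 27.8, 25.2 and 21.1, and Psmc5, a proteasome ATPase gene, shares with Smarcd2 an interval with 24.9, 29.1 and 28.2. Setd1b, a histone H3 lysine methyltransferase gene, had 34.4, 23.5 and 18.8. Among 38 markers of somatic testis cells, only Hsd17b3, the Leydig cell enzyme of testosterone synthesis, had one, with 22.3, 18.03 and 22.6 at 1839 bp past its 3' end; that midpoint was 182 bp from the start of the lncRNA gene Gm30999.

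Families of genes with a shared symbol had shares from 0.725% to 10%, beside 1.79% of all protein-coding genes. Olfactory receptor genes had 8 of 1103 members at one of the intervals (0.725%), from 7 intervals with mean folds of 21.8 to 34.6. After Olfr1106, the highest means were at Olfr1097 and Olfr1495. Olfr1097 had folds of 36.4, 35.0 and 26.9 and Olfr1495 had 27.6, 31.0 and 28.3. Solute carrier genes had 9 of 362 (2.49%), zinc finger genes of the Zfp series 6 of 388 (1.55%), Vmn vomeronasal receptor genes 3 of 351 (0.855%) and Tmem genes 7 of 231 (3.03%). The Gm, Fam and Ccdc series had 11 of 961 (1.14%), 4 of 167 (2.40%) and 1 of 134 (0.746%). Of 30 genes named Spata (spermatogenesis associated), a group looked at after the values were seen, 3 had one (10%). They were Spata46 (18.5, 19.05 and 16.5), Spata31d1a (25.04, 18.9 and 17.9) and Spata9 (21.5, 16.7 and 16.4). Replicate 3 was the lowest at each of them.

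The distance to LacZ intervals is partly set by the rule, which dropped 3 intervals that overlapped one and met its other limits. The nearest LacZ interval was a median of 72.6 kb away; 6 of the 324 had one within 5 kb and 15 (4.63%) within 10 kb. Of the 369 genes, 9 (2.44%) also had a LacZ interval at an end, beside 4.09% of all protein-coding genes; the rule itself lowers the first share, so nothing is read from the gap. The closest was at Mcm3, 657 bp from a LacZ interval with folds of 20.7, 9.09 and 6.76 in LacZ replicates 1, 2 and 3. Rab17 lay 1378 bp from a LacZ interval with 32.0, 8.86 and 5.32, and Cdipt, an enzyme gene of phosphatidylinositol synthesis, lay 774 bp from one with 12.02, 4.53 and 6.88. LacZ replicate 1 was the highest at all 3 and also had the highest median over the LacZ intervals at gene ends, 21.1 against 8.18 and 10.4 in LacZ replicates 2 and 3. The 2 lists were normalized separately, and LacZ signal below that list's threshold was not measured.

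The promoter sequences inside the intervals were close to promoters at large in composition. Over the 35 windows covered, GC content of the 250 upstream bases had a median of 56.8%, with quartiles of 49% and 64%, beside 56% (47.6% and 64.4%) over 20085 windows of autosomal protein-coding genes. The median number of CpG dinucleotides was 11, beside 10. Motifs were searched on both strands. A GC box (GGGCGG) was in 16 of the 35 windows (45.7%), beside 43.4% of all windows. The CCAAT box (CCAAT) was in 8 (22.9%), beside 35.3%, and TATAAA in 2 (5.71%), beside 11.7%. A full cyclic AMP response element (TGACGTCA), to which the spermatid factor CREM binds, was in 1 (2.86%), beside 1.98%; the window was that of Cldn6, a claudin gene, whose interval had folds of 23.7, 17.3 and 18.9. A CA repeat of 6 units was in 1 (2.86%), at Adam1a, beside 0.737%. A GA repeat of 6 units and the palindromic X box bound by RFX factors were in 0, beside 0.413% and 0.0149% of all windows. Some windows of 1 gene overlap, so these counts are not independent, and a match is a stretch of letters and not a measured binding site.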

How the data were processed

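Values came from 2 deposited interval lists, 1 for Gm4665 and 1 for LacZ probes; the file names give MACS2 as the caller. Per the file headers, each row gives 1 ratio per replicate, the linear fold over input, and a pileup, the signal (coverage) at the summit, whose library is not named. Positions are on mm10, per the submitters' processing notes. Aligner, version and settings were among the steps not given in the sources used here, and library totals were not used.

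The 39476 Gm4665 rows were reduced by joining 649 repeated rows, keeping the highest fold of each replicate, and the LacZ list likewise. Genes came from RefSeq (GRCm38.p6), leaving out autosomal entries that start below position 3000000, where neither list has an interval. A gene end is either annotated limit of a gene; a gene start was assigned where the promoter table gives the strand. Of 574 gene list entries, 557 distinct genes remained after matching by symbol or an unambiguous synonym, and 528 were autosomal and protein-coding. Named intervals are the 20 with the highest mean fold, those at listed genes, those beside the fold limits, the 5 highest and 5 lowest replicate ratios, the 5 closest to a start, genes with 2 intervals, and the 5 strongest that reach 2 genes, 1 of which is not reported here. Other intervals, at Septin2, Polr2f, Cldn6, Olfr1097, Olfr1495, the Spata genes, Nos1ap and Cdipt, were picked after their values were seen, as were the counts by gene family. Coordinates are 1-based. Interval selection was tested on simulated data against a direct search. Members and lists were chosen with earlier results of these data known. Python 3.11.15, pandas 2.3.3 and scipy 1.17.1 were used.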

Additional observations from a re-analysis of the deposited data

How the results depend on the processing

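No paired analysis was possible because no result comes from a test: the values are counts and descriptions of intervals chosen by fold, and the 2 lists were normalized separately. Of 84 values recomputed under 14 alternatives, 70 moved by less than 1.5 times (counts), the Wilson interval (share) or the spread between replicates (medians). With the fold limits on the mean of the replicates there were 498 intervals at 555 genes, a median mean fold of 19.4 and a replicate ratio of 1.51. A 1 kb window gave 167 intervals at 181 genes, 5 of them listed, and a 5 kb window 719 at 875, 35 of them listed, since fewer or more bases were searched. Without each replicate in turn the median replicate ratio was 1.18 to 1.27, which follows from 2 values in place of 3; the number of intervals was 334 to 437, and 281 to 316 of the 324 were kept, the fewest without replicate 2. Alternatives chosen after seeing the data were scaling replicates to 1 median, with 341 intervals, 285 of them shared, and a ratio of 1.29, and the summit in place of the midpoint, with 325 intervals. The start-side share was 52.7% to 55.6% in all 14. Unknown depth and missing strand at 73 intervals limit precision.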
